A study of Rattus norvegicus with 9 samples.

Results

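Organic ion carriers of the kidney were measured by array in rats given the antibiotic prodrug colistin methanesulfonate sodium (CMS). Genes were taken by symbol, as every probe set annotated to exactly 1 gene among Slc22a2, Slc22a4, Slc47a1, Slc22a6, Slc22a7, Slc22a8 and Slc22a12. That gave 7 of 14217 genes with a probe set of their own, read by 8 of the 31099 probe sets on the array, 3 for cation carriers and 5 for anion carriers, with Slc22a8 read by 2. All 7 genes passed the intensity minimum, a mean log2 value of at least 5, and were tested among 10337 genes.

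The 9 Sprague-Dawley rats, an outbred stock, were bought at 8 weeks of age and acclimated for 1 week, and the labels used here give no sex, although several of these carriers are known to differ between male and female rat kidneys. Each rat received a daily intraperitoneal injection for 7 days, of saline vehicle (0 mg/kg), 25 mg/kg CMS (CMS25) or 50 mg/kg CMS (CMS50), with 3 rats and 3 arrays per dose. The labels call the arrays of a dose biological replicates. They record no lesion in vehicle kidneys, basophilic and widened tubules in CMS25 kidneys, and dying and degenerating tubules with casts in CMS50 kidneys. RNA came from the whole right kidney, so carrier transcripts of the proximal tubule were read in a mixture with all other kidney cells, and fewer cells of a type cannot be told apart from less RNA per cell. Values are log2 intensities as deposited, and the number of arrays limits their precision.

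Proximal tubule cells secrete drugs and metabolites in 2 steps, uptake from blood across the basolateral membrane and exit into urine across the apical brush border. For organic cations, uptake runs through Slc22a2 (OCT2), driven by membrane voltage, and exit through Slc47a1 (MATE1), a proton exchanger. For organic anions, Slc22a6 (OAT1) and Slc22a8 (OAT3) take up substrates in exchange for dicarboxylates, and Slc22a12 (URAT1) reabsorbs urate at the apical side. Slc22a7 (OAT2) is a further anion carrier, and Slc22a4 (OCTN1) carries the zwitterion ergothioneine and some cations.

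CMS50 kidneys had a lower mean signal than vehicle kidneys for all 7 genes, and 5 of the 7 passed the test named below. The largest fall was that of the cation uptake carrier Slc22a2, at 6.02-fold. Among anion carriers, Slc22a12 was 2.51-fold lower, Slc22a6 2.37-fold lower and Slc22a7 1.88-fold lower. The cation exit carrier Slc47a1 was 1.29-fold lower. Slc22a4 and Slc22a8 did not pass the test (limma with Benjamini-Hochberg adjustment over all genes, adjusted p under 0.05). Across all genes, 31.1% were called in this comparison and 11.4% were called lower. The median log2 change was -0.91 over the 7 carriers, -0.36 over the 3 cation carriers and -1.08 over the 4 anion carriers, against 0.05 over all genes. No carrier was called in CMS25 kidneys.

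**Figure D1:**
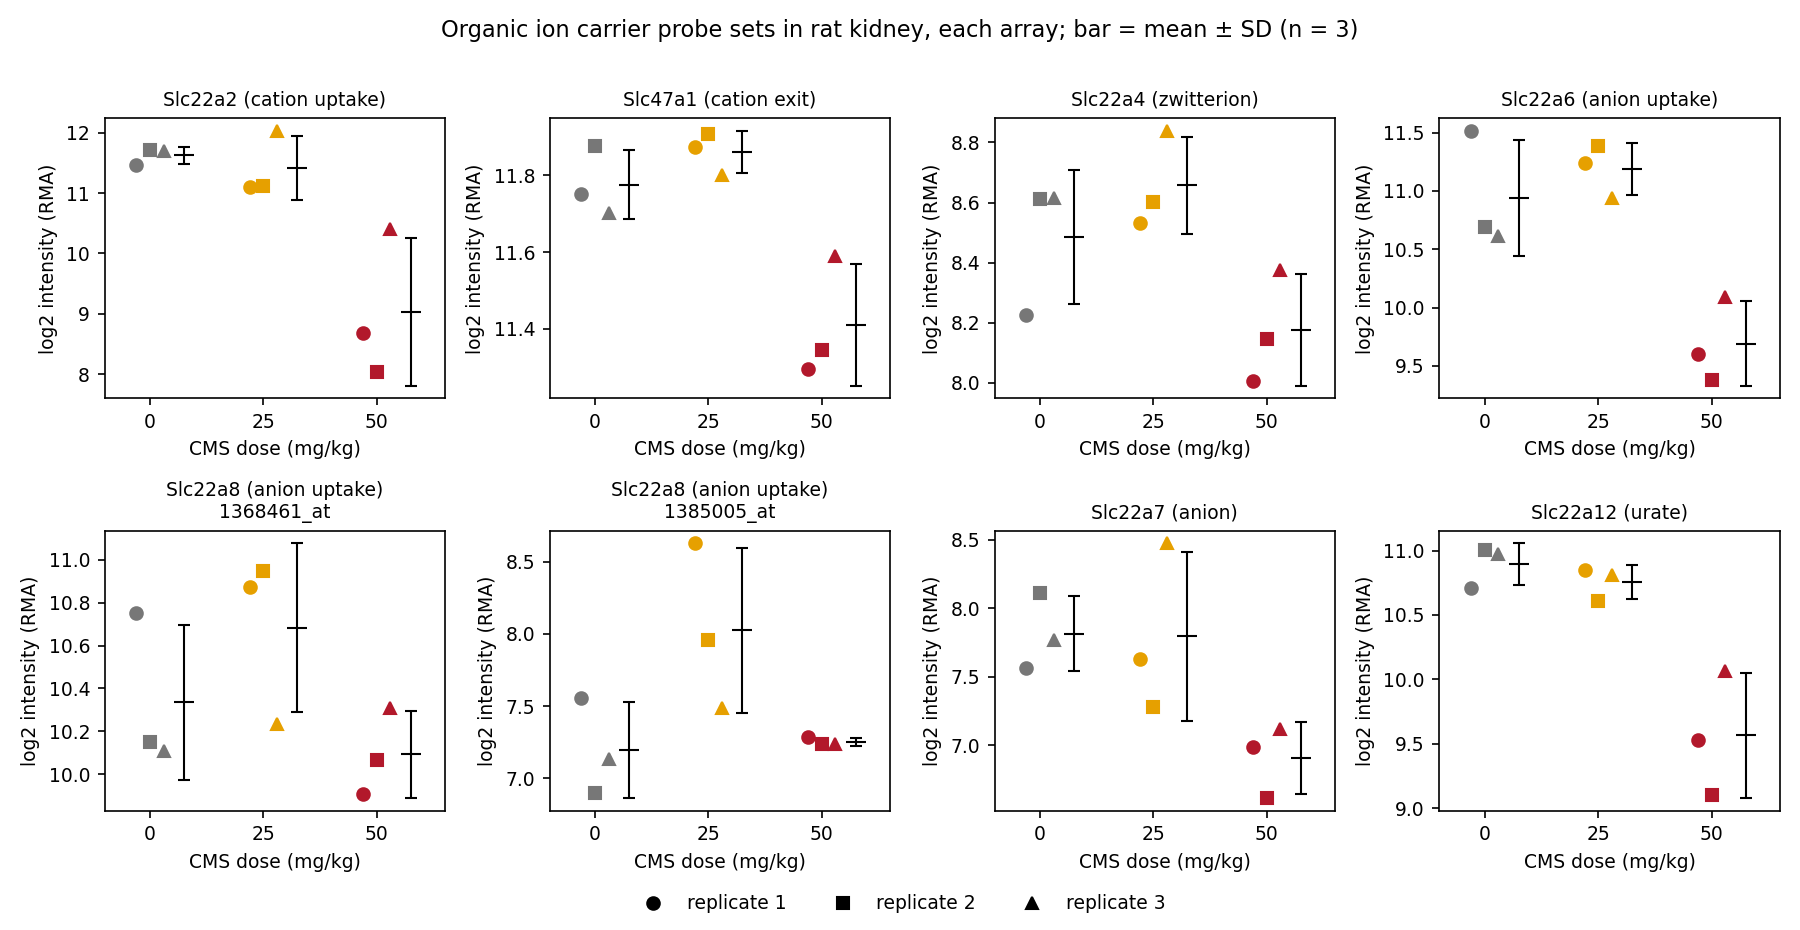
Log2 intensity of the 8 carrier probe sets (vertical axes, scaled per panel) against CMS dose in mg/kg (horizontal axes), with 1 symbol per array and shape by replicate number; bars show mean ± SD of 3 arrays. The CMS50 arrays lie below all vehicle arrays for Slc22a2, Slc47a1, Slc22a6, Slc22a7 and Slc22a12, while they overlap for Slc22a4 and for both probe sets of Slc22a8.

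Of the carriers, 5 had promoter entries in the RefSeq table (assembly GRCr8): Slc22a2, Slc22a4, Slc22a7, Slc22a8 and Slc22a12. The 250 bases before the table's start are shown for the carriers with the largest cation and anion falls, Slc22a2 and Slc22a12, and for Slc22a8, which was not called. Slc22a2 is at chr1:50711020-50711269 (minus strand), Slc22a12 at chr1:213281381-213281630 (minus strand) and Slc22a8 at chr1:214927034-214927283 (plus strand). Of the 5 windows, only that of Slc22a2 ends at the start of its gene model. For Slc22a12, Slc22a8, Slc22a7 and Slc22a4 the gene model extends upstream of that start, so their windows lie inside it. Sequences run 5′ to 3′ in the direction of the gene, and capitals mark GTTAAT, part of the site bound by the hepatocyte nuclear factor 1 (HNF1) family of kidney and liver transcription factors.
Slc22a2: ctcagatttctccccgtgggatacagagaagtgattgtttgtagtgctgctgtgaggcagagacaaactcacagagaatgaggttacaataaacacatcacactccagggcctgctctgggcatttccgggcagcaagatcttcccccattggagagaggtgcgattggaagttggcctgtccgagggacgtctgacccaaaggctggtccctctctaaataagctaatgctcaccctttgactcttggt
Slc22a12: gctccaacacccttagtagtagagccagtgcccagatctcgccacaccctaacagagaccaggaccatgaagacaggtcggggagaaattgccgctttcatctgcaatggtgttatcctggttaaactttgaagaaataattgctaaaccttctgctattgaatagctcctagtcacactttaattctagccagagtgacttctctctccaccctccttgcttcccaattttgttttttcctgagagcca
Slc22a8: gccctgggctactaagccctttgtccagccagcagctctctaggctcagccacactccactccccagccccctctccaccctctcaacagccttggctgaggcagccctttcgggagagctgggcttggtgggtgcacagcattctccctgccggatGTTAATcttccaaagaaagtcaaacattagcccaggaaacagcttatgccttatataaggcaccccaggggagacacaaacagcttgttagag

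These letters were searched on both strands. Slc22a8 held 1 match, on the gene's own strand from position -93 before the start, and the other 4 windows held 0. Of 33469 promoter windows of the same length, 6.45% held at least 1 match. AGGTCA, a nuclear receptor motif that hepatocyte nuclear factor 4 can bind, occurred in 14.1% of all windows, and CAAAGTCCA, a core form of its site, in 0.338%. Both had 0 matches in all 5 carrier windows. A match describes letters only, and a window without one says only that those letters are not in it.

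The cation carriers come first. Slc22a2 (probe set 1387303_at) had 11.46, 11.72 and 11.69 in vehicle replicates 1 to 3. It had 11.10, 11.12 and 12.03 in CMS25 replicates 1 to 3, and 8.67, 8.03 and 10.40 in CMS50 replicates 1 to 3. Every CMS50 array was below every vehicle and CMS25 array, and CMS50 replicate 3 stood well above the other CMS50 arrays. The group means were 11.62 ± 0.14 for vehicle, 11.42 ± 0.53 for CMS25 and 9.03 ± 1.23 for CMS50 (SD, n = 3 each). CMS50 minus vehicle was -2.59 on the log2 scale (SE 0.51, 95% interval -3.75 to -1.43, limma adjusted p = 0.00722). The spread among CMS50 arrays was wider than in the other groups, with a range of 2.37 against 0.252 among vehicle arrays. The change was -2.41 without CMS50 replicate 1, -2.09 without replicate 2 and -3.27 without replicate 3, and over all alternatives the adjusted p lay between 0.000298 and 0.0327.

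Slc47a1, through which cations leave the cell, moved far less. Its probe set 1390835_at had 11.75, 11.87 and 11.70 in vehicle kidneys, 11.87, 11.91 and 11.80 in CMS25 kidneys, and 11.29, 11.35 and 11.59 in CMS50 kidneys. All 3 CMS50 arrays were below the lowest vehicle array, by a small margin for replicate 3. The change was -0.36 (SE 0.10, 95% interval -0.59 to -0.14, limma adjusted p = 0.0238). The call ended without any 1 of CMS50 replicates 1 and 2 and vehicle replicates 1 and 2, with changes from -0.38 to -0.31 and adjusted p from 0.0549 to 0.0865.

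Since Slc22a2 and Slc47a1 act in sequence, their log2 difference was taken within each array, a pairing chosen after the values were seen. The zero of this difference has no meaning, because the probe sets differ in brightness, and only its change between groups was read. It was -2.62, -3.32 and -1.19 in CMS50 arrays, against -0.29, -0.16 and -0.01 in vehicle arrays. The groups did not overlap, so each CMS50 kidney had less uptake carrier signal relative to exit carrier signal than any vehicle kidney. The mean change was -2.23 on the log2 scale. A two-sided exact permutation test gave p = 0.1, the smallest that 3 against 3 arrays allow.

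Slc22a4 (1387434_at) had 8.23, 8.61 and 8.61 in vehicle kidneys, 8.53, 8.60 and 8.84 in CMS25 kidneys, and 8.01, 8.15 and 8.38 in CMS50 kidneys. CMS50 replicate 3 was above vehicle replicate 1, so these groups overlapped. CMS50 minus vehicle was -0.31 (SE 0.14, 95% interval -0.63 to 0.02, limma adjusted p = 0.131). With array weights the adjusted p was 0.0485, and with the replicate number as a block it was 0.0490.

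Among anion carriers, the uptake exchanger Slc22a6 (1368329_at) had 11.51, 10.69 and 10.62 in vehicle kidneys. It had 11.24, 11.38 and 10.94 in CMS25 kidneys, and 9.60, 9.38 and 10.09 in CMS50 kidneys. CMS50 arrays were all below the vehicle arrays, among which replicate 1 stood high. The means were 10.94 ± 0.50 for vehicle, 11.19 ± 0.23 for CMS25 and 9.69 ± 0.36 for CMS50 (SD, n = 3 each). CMS50 minus vehicle was -1.25 (SE 0.26, 95% interval -1.83 to -0.67, limma adjusted p = 0.00848). It kept its call in all 19 alternatives, with adjusted p from 0.00337 to 0.0354.

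Slc22a8, the other basolateral exchanger, was not called in CMS50 against vehicle, unlike Slc22a6. Its probe set with the higher mean, which entered the test, was 1368461_at and had 10.75, 10.15 and 10.11 in vehicle kidneys, 10.87, 10.95 and 10.23 in CMS25 kidneys, and 9.90, 10.06 and 10.31 in CMS50 kidneys. The other probe set, 1385005_at, had 7.56, 6.90 and 7.14 in vehicle kidneys, 8.63, 7.96 and 7.49 in CMS25 kidneys, and 7.28, 7.24 and 7.24 in CMS50 kidneys. On both, CMS50 and vehicle arrays overlapped. CMS50 minus vehicle was -0.24 on the first probe set (95% interval -0.76 to 0.27, limma adjusted p = 0.448). On the second it was 0.05 (95% interval -0.53 to 0.64, adjusted p = 0.893, limma over 13419 probe sets). The intervals of both probe sets exclude a fall of the size estimated for Slc22a6.

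The Slc22a6 and Slc22a8 difference within each array, also chosen after the values were seen and read only for its change, was -0.30, -0.68 and -0.22 in CMS50 arrays. In vehicle arrays it was 0.76, 0.54 and 0.51, so the groups did not overlap. The difference averaged -0.40 in CMS50 and 0.60 in vehicle arrays (two-sided exact permutation p = 0.1, the smallest possible here). On the RefSeq map (GRCr8) both genes lie side by side on chromosome 1, and Slc22a25 is the next gene on the far side of Slc22a8. Slc22a25, a further member of the family, was 9.21 ± 0.62 in CMS50 and 10.91 ± 0.20 in vehicle kidneys (SD, n = 3 each). Its change was -1.69 (SE 0.26, limma adjusted p = 0.00327), so both genes that flank Slc22a8 fell while Slc22a8 was not called.

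Slc22a12, the apical urate exchanger, had the narrowest interval among the anion carriers that fell. Probe set 1396039_at read 10.71, 11.00 and 10.97 in vehicle kidneys, 10.85, 10.61 and 10.81 in CMS25 kidneys, and 9.53, 9.10 and 10.07 in CMS50 kidneys. The highest CMS50 array was below the lowest array of either other group. CMS50 minus vehicle was -1.33 (SE 0.21, 95% interval -1.81 to -0.85, limma adjusted p = 0.00352), called in all 19 alternatives.

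Slc22a7 (1398267_at), the further anion carrier, had 7.57, 8.11 and 7.77 in vehicle kidneys. It had 7.63, 7.28 and 8.48 in CMS25 kidneys, and 6.99, 6.62 and 7.12 in CMS50 kidneys. CMS50 arrays were below all arrays of the other groups, and CMS25 replicate 3 was the highest of the 9. CMS50 minus vehicle was -0.91 (SE 0.28, 95% interval -1.55 to -0.27, limma adjusted p = 0.0381). The call ended without any 1 of CMS50 replicates 1 and 2 and vehicle replicates 1, 2 and 3 (changes from -1.03 to -0.76, adjusted p from 0.0536 to 0.127).

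The 3 CMS50 arrays lay below all 3 vehicle arrays for 5 of the 7 carriers, and for 19.1% of all genes. The count of carriers called dropped to 3 when any 1 of 4 arrays was left out, CMS50 replicates 1 and 2 and vehicle replicates 1 and 2. Slc22a2, Slc22a6 and Slc22a12 were called in each of the 19 alternatives.

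**Figure D2:**
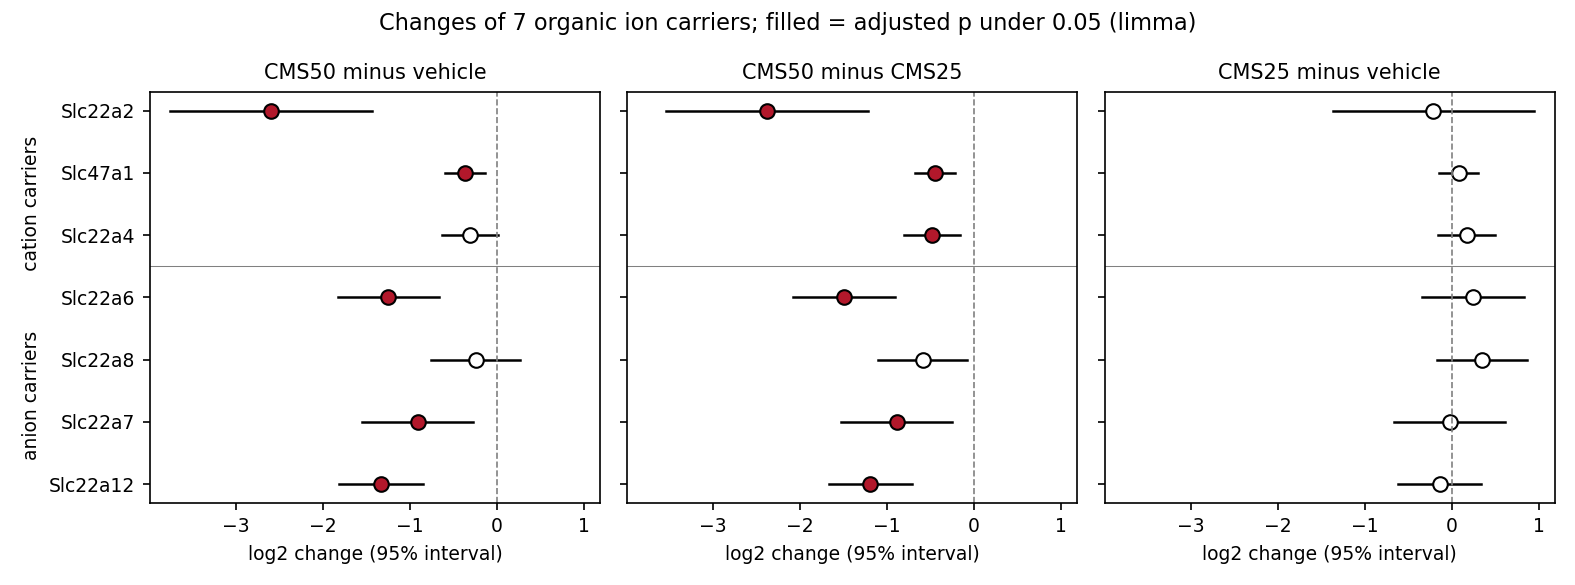
Log2 change (horizontal axis) of each carrier (rows, cation carriers above the line) in 3 comparisons, with 95% intervals of the limma fit; filled points passed an adjusted p under 0.05. CMS50 minus vehicle ran from -2.59 for Slc22a2 to -0.24 for Slc22a8, and no point is filled for CMS25 minus vehicle.

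At the lower dose the question was whether carriers already differed from vehicle. Of 10337 genes, 0 were called by limma in CMS25 kidneys (0%), with 604 genes at an unadjusted p under 0.05 and a smallest adjusted p of 0.523. Of the 7 carriers, 0 reached an unadjusted p under 0.05, and arrays of 0 carriers failed to overlap, against 12.1% of all genes. The estimates ran from -0.21 for Slc22a2 (95% interval -1.37 to 0.95) to 0.35 for Slc22a8 (95% interval -0.16 to 0.86). The intervals set how large a missed change could be. They were narrowest for Slc47a1 (0.08, from -0.14 to 0.31) and Slc22a4 (0.17, from -0.15 to 0.50), and wider for Slc22a6 (0.25, from -0.33 to 0.83), Slc22a12 (-0.14, from -0.62 to 0.34) and Slc22a7 (-0.02, from -0.66 to 0.62). The second probe set of Slc22a8, 1385005_at, gave 0.83 (95% interval 0.25 to 1.41, adjusted p = 0.692).

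The doses were also set against each other. CMS50 kidneys had lower means than CMS25 kidneys for all 7 carriers, and 6 of the 7 were called lower. Across all genes, 30.3% were called in this comparison and 9.43% were called lower. Arrays did not overlap in the lower direction for the same number of carriers, 6, against 15.3% of all genes. CMS50 minus CMS25 was -2.38 for Slc22a2 (SE 0.51, limma adjusted p = 0.0103), -1.50 for Slc22a6 (adjusted p = 0.00451) and -1.19 for Slc22a12 (adjusted p = 0.00503). It was -0.45 for Slc47a1 (adjusted p = 0.0113), -0.48 for Slc22a4 (adjusted p = 0.0334) and -0.89 for Slc22a7 (adjusted p = 0.0421). Slc22a8 gave -0.59 (95% interval -1.10 to -0.08, adjusted p = 0.0752), and its second probe set, 1385005_at, gave -0.77 (95% interval -1.35 to -0.19, adjusted p = 0.0513). With single arrays left out, the first probe set gave from -0.46 (without CMS25 replicate 2) to -0.82 (without CMS25 replicate 3), with adjusted p of up to 0.203, and passed only without CMS25 replicate 3 (adjusted p = 0.0292).

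This comparison and the one with vehicle share the CMS50 arrays and so they are not independent of each other. The Slc22a4 call ended without any 1 of CMS50 replicates 1 and 2 and CMS25 replicates 2 and 3 (changes from -0.51 to -0.39, adjusted p from 0.0581 to 0.113). That of Slc22a7 ended with only these 2 groups in the fit (adjusted p = 0.0716). It also ended in leave-outs of CMS50 replicates 1 and 2, CMS25 replicates 1 and 3 and vehicle replicates 1 and 3, with changes from -0.97 to -0.55 and adjusted p from 0.0516 to 0.139. Under cyclic loess scaling, 58.8% of the calls in this comparison were higher in CMS50, against 68.8% with the deposited values. 

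Individual kidneys of a group differed in their carrier values. The share of all genes with the same order of arrays was not counted, so the order is not shown to be particular to carriers. In the CMS50 group, replicate 3 had the highest value for all 7 genes by the probe set tested, at -1.22 from the vehicle mean for Slc22a2, -0.85 for Slc22a6 and -0.83 for Slc22a12. CMS50 replicate 2 was at -3.60, -1.56 and -1.79 for the same genes. Replicate 2 was lowest for these and for Slc22a7, whereas replicate 1 was lowest for Slc22a4, Slc47a1 and Slc22a8 by the probe set tested. Array weights fitted over all genes were lowest for CMS50 replicate 3, at 0.54. The second probe set of Slc22a8, 1385005_at, went the other way, highest in CMS50 replicate 1 and lowest in replicate 3, over a range of only 0.0483. Markers of tubular injury ran the other way in these kidneys: the mean log2 level over 10 genes was 10.33, 10.49 and 9.52 in CMS50 replicates 1, 2 and 3. It ranged from 7.21 to 7.73 in vehicle kidneys and from 7.00 to 7.53 in CMS25 kidneys. Of these 10 genes, which include Havcr1 (kidney injury molecule 1) and Lcn2 (a lipocalin), 8 rose in CMS50 against vehicle and 0 fell. In that comparison 19.6% of all genes were called higher and 11.4% lower. Havcr1 passed the minimum only through the CMS50 group, averaging 4.83 in vehicle, 4.15 in CMS25 and 11.15 in CMS50 kidneys.

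Within the other groups the carriers parted. In vehicle kidneys, replicate 1 was highest for Slc22a6 and for both probe sets of Slc22a8, but lowest for Slc22a2, Slc22a4, Slc22a7 and Slc22a12. In CMS25 kidneys, replicate 3 was highest for Slc22a2, Slc22a4 and Slc22a7, and lowest for Slc22a6, Slc47a1 and both probe sets of Slc22a8. These are single kidneys, and the ranks are a description.

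**Figure D3:**
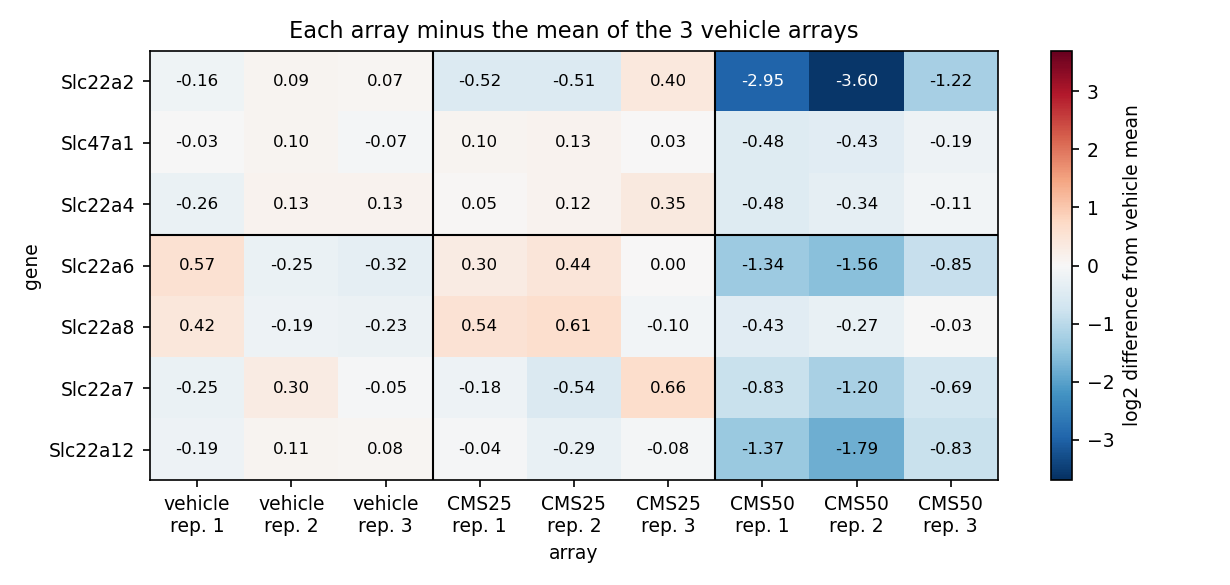
Log2 value of each carrier (rows) in each of the 9 arrays (columns) minus the mean of its 3 vehicle arrays; blue is lower and red higher. CMS50 replicate 3 is the palest of the CMS50 columns for all 7 genes by the probe set tested, at -1.22 for Slc22a2 beside -2.95 and -3.60 in replicates 1 and 2.

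Signs of cell mixture and RNA quality were read beside these results. The kidney label fitted its markers: the thick ascending limb gene Umod averaged 13.29 over the 9 arrays, the proximal endocytic receptor Lrp2 13.32, the phosphate carrier Slc34a1 13.77 and the collecting duct channel Aqp2 10.86. Over 17 proximal tubule markers the mean log2 level was 11.15 to 11.43 in vehicle, 11.32 to 11.63 in CMS25 and 11.19 to 11.39 in CMS50 kidneys, so all groups overlapped. Of 16 of these markers that passed the minimum, 6 fell and 2 rose in CMS50 against vehicle, with a median change of 0.06. For this and the marker counts that follow, 19.6% of all genes were called higher and 11.4% lower. Of 11 macrophage markers that passed, 11 rose and 0 fell. Among them, Mrc1 passed only through CMS50, averaging 4.29 in vehicle and 7.03 in CMS50 kidneys, and below the minimum in CMS25 kidneys. Its place in this count is therefore weak. The mean level of macrophage markers over 12 genes was 6.14 to 6.26 in vehicle, 5.84 to 6.35 in CMS25 and 7.20 to 8.07 in CMS50 kidneys. All 4 neutrophil markers on the array were below the minimum. Of 5 fibroblast markers, 5 rose (median 1.61). Of 5 loop and distal tubule markers, 3 fell (median -0.79), as did 2 of 4 podocyte markers (median -0.82), 2 of 6 collecting duct markers (median -0.33) and the hemoglobin gene Hbb (-2.84). Of 3 endothelial markers, 1 fell (median -0.49). Cd3e, the only lymphocyte marker that passed, rose (0.68). It passed only through CMS50, averaging 4.83 in vehicle, 4.98 in CMS25 and 5.51 in CMS50 kidneys. The loop and distal tubule markers averaged 10.67, 9.94 and 11.20 in CMS50 replicates 1, 2 and 3, against 11.37 to 11.46 in vehicle kidneys. That order, lowest in replicate 2 and highest in replicate 3 as for Slc22a2, was shared by collecting duct markers (8.70, 8.09 and 8.84). It was not shared by proximal tubule markers (11.19, 11.23 and 11.39) or podocyte markers (7.71, 7.23 and 7.70). The log2 difference between the 3′ and 5′ control probe sets of beta-actin, a reading of RNA quality, was 2.80 to 3.08 in vehicle, 3.05 to 3.28 in CMS25 and 3.48 to 3.63 in CMS50 arrays. For GAPDH it was 0.51 to 0.56 in vehicle, 0.50 to 0.91 in CMS25 and 0.77 to 0.89 in CMS50 arrays, so CMS25 overlapped both other groups. On both transcripts every CMS50 array was above every vehicle array, so this reading of RNA quality differed between the groups of the main comparison. What part these have in the carrier changes was not tested.

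Other carriers of the family were read from a list. Of 17 listed genes, which are further Slc22 genes, Slc47a2 and the monoamine carrier Slc29a4, 10 had a probe set of their own and 9 passed the minimum. Of these, 4 fell and 0 rose in CMS50 against vehicle, where 11.4% of all genes were called lower, with a median change of -0.38 against 0.05 over all genes. Besides Slc22a25, these were Slc22a24 (-1.38), Slc22a13, known in human as a carrier of urate and nicotinate (-1.02), and Slc22a17, a receptor for lipocalin 2 (-0.35), with limma adjusted p of 0.0250, 0.0348 and 0.0383. Slc22a13 lay close to the minimum of 5, averaging 5.58 in vehicle, 5.02 in CMS25 and 4.56 in CMS50 kidneys. It was tested only because of its higher values outside CMS50, so its place in this count is weak. Slc22a25 kept its call in all 19 alternatives, whereas the other calls were less secure. That of Slc22a24 ended without any 1 of CMS50 replicates 1 and 2 and vehicle replicates 2 and 3 (adjusted p up to 0.0888, changes from -1.43 to -1.17). That of Slc22a13 ended without any 1 of CMS50 replicates 1, 2 and 3 and vehicle replicates 2 and 3 (adjusted p up to 0.0956), with a change of -0.62 without vehicle replicate 2, and with the replicate number as a block (adjusted p = 0.0509). That of Slc22a17 ended without any 1 of CMS50 replicates 1 and 2, CMS25 replicate 1 and vehicle replicates 1, 2 and 3 (adjusted p up to 0.130, changes from -0.40 to -0.29).

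In CMS50 against CMS25, where 9.43% of all genes were called lower, 4 of the same 9 genes fell and 0 rose. Slc22a25 changed by -1.65 (limma adjusted p = 0.00347) and Slc22a24 by -1.19 (adjusted p = 0.0434). Slc22a18, a family member less well known, changed by -0.52 (adjusted p = 0.0168), and Slc22a5, the carnitine carrier, by -0.44 (adjusted p = 0.0201). The calls of Slc22a5 and Slc22a18 ended in 4 and 3 leave-outs of 1 array, with adjusted p up to 0.0709 and 0.0613. They were lost without CMS50 replicate 1 or 2, and also without CMS25 replicate 1 or 2 for Slc22a5 (changes from -0.46 to -0.37) and CMS25 replicate 3 for Slc22a18 (changes from -0.49 to -0.47). Slc22a24 lost its call without any 1 of CMS50 replicates 1 and 2, CMS25 replicates 1 and 3 and vehicle replicates 1 and 3 (changes from -1.19 to -0.90, adjusted p up to 0.140), and with only these 2 groups in the fit (adjusted p = 0.0718).

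Carriers of the apical exit step did not fall together. Of 7 measured, 2 rose and 1 fell in CMS50 against vehicle, where 19.6% of all genes were called higher and 11.4% lower. For so few genes, these counts are not far from those shares. Slc17a4, a sodium-phosphate family carrier that moves organic anions, was 3.77-fold higher, at 7.28 ± 0.18 in CMS50 against 5.36 ± 0.29 in vehicle kidneys (SD, n = 3 each, limma adjusted p = 0.00174). Abcc2, the pump MRP2 that exports conjugated anions, was 1.63-fold higher (adjusted p = 0.0201), a call that ended without any 1 of CMS50 replicates 1 and 2 and vehicle replicate 2 (changes from 0.59 to 0.74, adjusted p up to 0.0753). Slc17a3, known in human as an apical exit route for urate and anions, changed by -0.65 (adjusted p = 0.00476). Against CMS25, where 20.8% of all genes were called higher and 9.43% lower, Slc17a4 changed by 1.95 and Abcc2 by 1.00. Slc17a3 changed by -0.42 in that comparison (adjusted p = 0.0239), and its call ended without any 1 of CMS50 replicates 1 and 2 and CMS25 replicates 2 and 3 (changes from -0.41 to -0.35, adjusted p up to 0.0819).

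The exchangers run on gradients set up by other carriers. Of 7 such genes measured, 1 fell and 0 rose in CMS50 against vehicle, a share near the 11.4% of all genes called lower. This was Fxyd2, the gamma subunit of the sodium pump, at -0.64 (limma adjusted p = 0.0211), a call that ended without any 1 of CMS50 replicates 1 and 2 and vehicle replicates 2 and 3 (changes from -0.63 to -0.48, adjusted p up to 0.0756). Slc13a2 and Slc13a3, sodium-coupled dicarboxylate carriers, changed by -0.56 (adjusted p = 0.0507) and -0.19 (adjusted p = 0.297). In CMS50 against CMS25, where 9.43% of all genes were called lower, 2 fell: Slc13a2 by 1.05 (adjusted p = 0.00520) and Fxyd2 by 0.55 (adjusted p = 0.0358). The Fxyd2 call ended in leave-outs of CMS50 replicates 1 and 2, CMS25 replicates 1, 2 and 3 and vehicle replicate 3 (changes from -0.58 to -0.40, adjusted p up to 0.116), and with only these 2 groups in the fit (adjusted p = 0.0728).

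Of 5 measured genes of urate handling besides Slc22a12, 0 were called by limma in any of the 3 comparisons. Slc2a9, the basolateral urate carrier, changed by -0.11 in CMS50 against vehicle (95% interval -0.39 to 0.17), and Pdzk1, a scaffold protein that binds URAT1, by -0.00217 (95% interval -0.28 to 0.28). Of 6 measured regulators, 2 rose and 0 fell in CMS50 against vehicle, where 19.6% of all genes were called higher, and 1 of the 2 calls differed among probe sets. Nedd4 and Nedd4l, ubiquitin ligases known to act on anion carriers in cultured cells, changed by 0.60 (adjusted p = 0.00901) and 0.31 (adjusted p = 0.0287) against vehicle. They changed by 0.48 (adjusted p = 0.0223) and 0.50 (adjusted p = 0.00484) against CMS25. Nedd4 had 5 probe sets above the minimum, and averaged over its probe sets it lost both calls, with changes of 0.19 (adjusted p = 0.251) and 0.22 (adjusted p = 0.176). The Nedd4l call against vehicle ended without any 1 of CMS50 replicate 1 and vehicle replicates 1, 2 and 3 (changes from 0.26 to 0.31, adjusted p up to 0.0992). The Nedd4 call against CMS25 ended without any 1 of CMS50 replicates 1 and 2 and CMS25 replicate 3 (changes from 0.40 to 0.44, adjusted p up to 0.0834), and with only these 2 groups in the fit (adjusted p = 0.0531). Hnf4a, a transcription factor of proximal tubule genes, changed by -0.22 in CMS50 against vehicle (95% interval -0.47 to 0.03, adjusted p = 0.166).

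**Figure D4:**
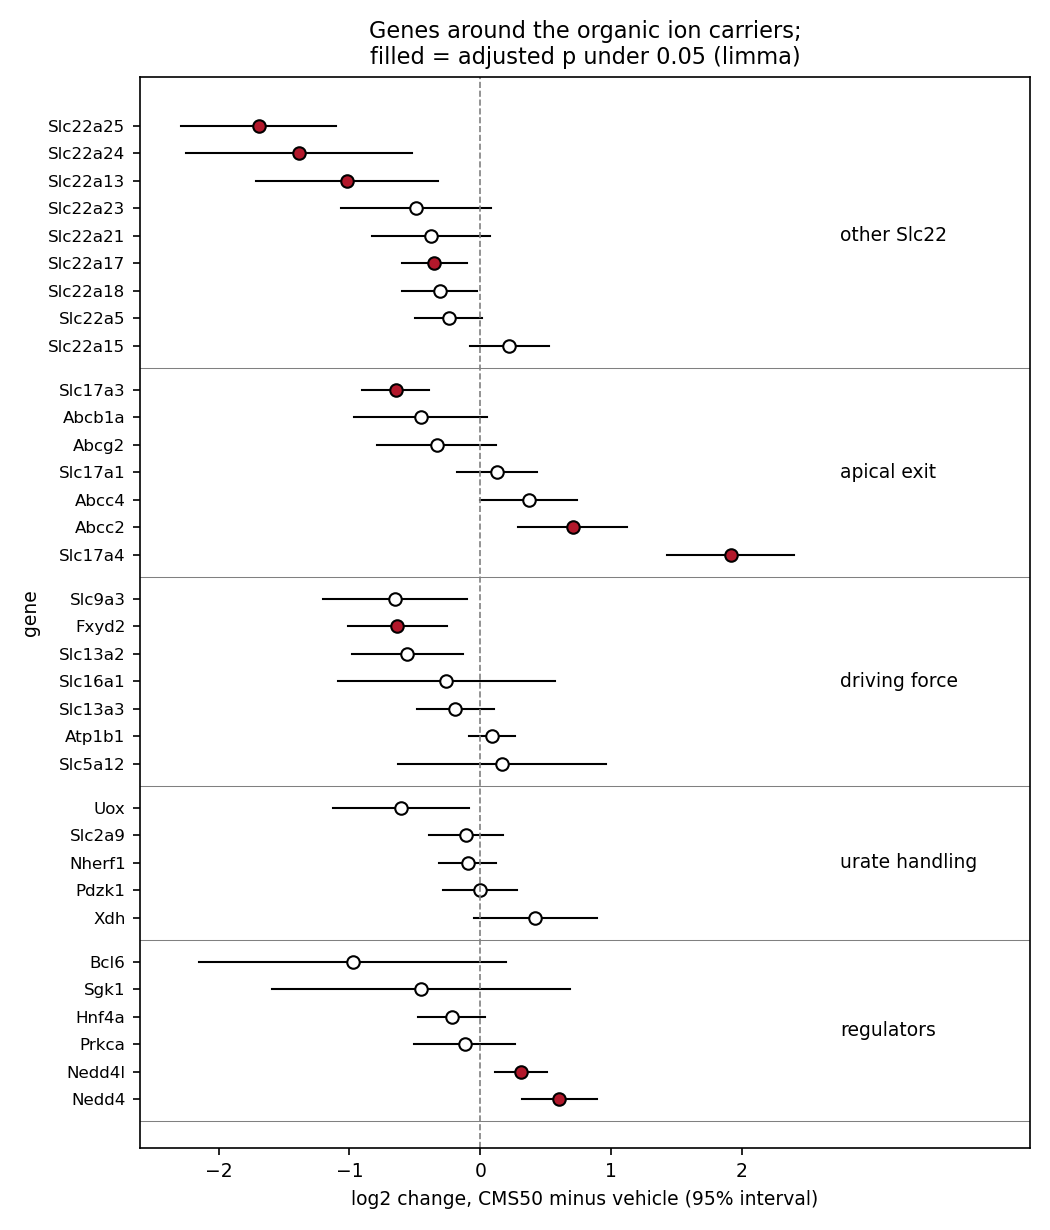
Log2 change of CMS50 minus vehicle (horizontal axis, 95% intervals of the limma fit) for genes of 5 lists around the carriers (rows); filled points passed an adjusted p under 0.05. The Slc22 genes at the top lie mostly left of 0, down to -1.69 for Slc22a25, and Slc17a4 of the apical exit step lies farthest right, at 1.92.

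The genes whose 9-array profile was nearest to each carrier were found by the root mean square (RMS) difference in log2 units, with each profile centred on its own mean. These are descriptions, and the shared dose groups shape every profile. Nearest to Slc22a2 were Dhrs7l1 (0.192), Hnmt, the histamine-degrading methyltransferase (0.198), and Rgn, the calcium-binding regucalcin (0.221), against a spread of Slc22a2 itself of 1.33. Nearest to Slc22a12, whose spread was 0.647, were Rab29, a small GTPase (0.0947), Slc45a3 (0.113) and Arhgap5 (0.162). Nearest to Slc22a6 (spread 0.724) were Mpv17l (0.166), Nox4, the NADPH oxidase abundant in kidney (0.173), and Paqr9 (0.209).

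Nearest to Slc22a8 (spread 0.363) were Kcnj15, a potassium channel (0.154), Susd2 (0.176) and Mpst, a sulfurtransferase (0.178). Slc22a7 (spread 0.543) was nearest to Cap2, which binds actin (0.138), Entrep3 (0.173) and Epg5 (0.177). Slc22a4 (spread 0.253) was nearest to Bckdha, a subunit of the branched-chain keto acid dehydrogenase (0.0784), Rnf151 (0.0811) and Macrod1 (0.0830). Slc47a1 (spread 0.215) was nearest to Aamdc (0.0522), Armc8 (0.0612) and Xpo7, an exportin (0.0621). No carrier was among the 3 nearest genes of another.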

How the data were processed

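Kidney RNA of 9 rats was hybridised to Affymetrix rat expression arrays, 1 per rat, per the labels' protocols. The deposited values are log2 intensities made with RMA in Affymetrix Expression Console, per the submitters' processing notes, which give no version. This method subtracts background, gives all arrays 1 distribution and combines the probes of a set. A shift of every gene is therefore invisible, and small changes near background shrink. Nothing was normalised again, and 0 values were missing.

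Gene names came from an older platform annotation (20826 probe sets with 1 symbol, 436 with several, 9780 with none). For each gene the probe set with the highest mean was used, with a mean log2 of at least 5. One limma model (version 3.58.1, R 4.3.3) with lmFit and eBayes took all 3 groups. Its p-values were Benjamini-Hochberg adjusted over 10337 genes, and the fit was tested on simulated data. Intervals are 95% intervals of the fit. Carriers and lists were chosen with earlier results of these data known. Beyond the 7 carriers, genes named are the called members of each list and the 3 nearest profiles, and further ones were picked after their values were seen. Labels give no batch. Alternatives changed scaling, minimum, probe set rule, variance model, weights, groups fitted, replicate block and single arrays. Same-numbered arrays of 2 groups did not deviate together throughout (correlations from -0.183 to 0.263). Figures used matplotlib 3.10.9.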

Additional observations from a re-analysis of the deposited data

How the results depend on the processing

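Each result was recomputed under up to 19 alternatives (genes with a mean log2 under 6 have no value under that minimum). The 831 values of single genes and of differences between genes comprised 746 that stayed the same, 78 that lost a call, 3 that gained one and 4 that changed sign. A single gene stayed the same if it kept direction and side of the threshold. Differences between genes have no threshold, and stayed the same if they kept direction and moved by less than their SD among CMS50 arrays. The sign changes were all of Slc22a7 in CMS25 minus vehicle (-0.02), which was 0.0236 under cyclic loess scaling and from -0.36 to 0.24 when single arrays were left out. With 1 array left out, 1687 to 3546 genes and 3 to 5 carriers were called in CMS50 minus vehicle, against 3211 and 5. In CMS50 minus CMS25 the ranges were 1569 to 3518 genes and 4 to 6 carriers, against 3128 and 6. The smaller group is then assumed to vary like the others. Leaving out CMS50 replicate 1, CMS50 replicate 2 or vehicle replicate 2 gave 1711, 1687 and 1852 genes in CMS50 minus vehicle. Leaving out CMS50 replicate 1, CMS50 replicate 2 or CMS25 replicate 3 gave 1737, 1569 and 2008 in CMS50 minus CMS25, and the cause was not tested. The count for CMS25 minus vehicle was 0 under all 19. With the replicate number as a block, 2865 and 2857 genes and 6 and 6 carriers were called in CMS50 against vehicle and CMS25. The numbers name samples only, as same-numbered arrays did not all correlate. Scaling moved the median of all genes by at most 0.0486. Genes with a mean log2 under 5, such as Slc22a3, were not tested, and their changes are limited by closeness to background.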
